A study of Mus musculus with 8 samples.

Results

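The 39 genes described here encode the sensors and transcription factors of the unfolded protein response, the kinases that phosphorylate the translation factor eIF2alpha, the chaperones and disulfide isomerases of the endoplasmic reticulum (ER), the ER-associated degradation (ERAD) machinery, and the heat shock chaperones of the cytosol with their regulators. They were chosen by name, with earlier results of these data known. All 39 were found among the 55376 features of the count table, and all 39 were among the 22173 genes with enough reads to be tested. The tissue was the left striatum, with 1 library for each of 4 deletion mice (D9-Cre-Bcl11b tm1.1Leid, Cre positive) and 4 control mice (Cre-). All 8 were female, 4 months of age and of the C57Bl/129S2/Sv strain, and the brains were perfused with saline under pentobarbital. The mice came from crosses of D9-Cre mice with a Bcl11b tm1.1Leid line, in which Bcl11b is flanked by loxP sites. The labels name the control mice by their Cre status alone, and the authors describe them as homozygous for the floxed gene. In the deletion mice, Cre was driven by D9, a regulatory element of Ppp1r1b, the gene for DARPP-32, so that recombination was directed to the projection neurons and not to the other cells of the dissected tissue. The mice are named control 1 to 4 and deletion 1 to 4 after the numbers in their labels, which give no litter or batch.

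The lumen of the ER folds secreted and membrane proteins. When unfolded proteins build up there, the sensors IRE1 (Ern1), ATF6 (Atf6, Atf6b) and PERK (Eif2ak3) are activated. IRE1 splices the mRNA of Xbp1, ATF6 is cut to release a transcription factor, and PERK phosphorylates eIF2alpha, which lowers general translation and favours translation of ATF4. The factors made in this way raise transcription of ER chaperones, of ERAD components and of amino acid enzymes. The cytosol has a separate program, in which HSF1 raises the HSP70, HSP40, HSP110, HSP90 and small heat shock proteins. Neurons of the striatum rely on these systems because they cannot dilute misfolded protein by division. The values below are mRNA levels, and they do not report splicing of Xbp1, cleavage of ATF6, phosphorylation of eIF2alpha or translation of ATF4.

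Some target genes carry known elements in their promoters. The ER stress response element (ERSE), bound by ATF6 and XBP1 together with NF-Y, was searched as CCAAT and CCACG with 9 bases between them, on both strands, in 300 bases around each RefSeq transcription start (250 upstream to 50 downstream, GRCm38.p6). A window was given for 33 of the 39 genes and for none of Atf6, Hspa8, Hsp90aa1, Hsp90ab1, Cryab and Hsf1. The element was present in 39 of 32851 windows (0.119%), and 7 of the 33 genes had it, 6 of them ER chaperone genes and the other the ERAD gene Syvn1. The related ERSE-II, ATTGG and CCACG with 1 base between them, was in 12 windows (0.0365%), of which one belonged to Herpud1. The stretches are shown because they mark the genes that share this element, which are compared with each other further on. They are from RefSeq, 5′ to 3′ on the strand of the gene, with both ends of the element in capitals.
Hspa5, chr2:34772020-34772048, plus strand: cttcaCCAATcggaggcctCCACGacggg
Canx, chr11:50325795-50325823, minus strand: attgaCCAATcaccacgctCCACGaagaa
Calr, chr8:84847070-84847098, minus strand: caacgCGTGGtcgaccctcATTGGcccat
Hsp90b1, chr10:86705633-86705661, minus strand: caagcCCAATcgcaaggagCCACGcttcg
Hsp90b1, chr10:86705528-86705556, minus strand: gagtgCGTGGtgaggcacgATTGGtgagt
Pdia6, chr12:17266486-17266514, plus strand: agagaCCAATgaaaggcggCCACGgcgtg
Dnajc3, chr14:118937822-118937850, plus strand: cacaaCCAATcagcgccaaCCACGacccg
Syvn1, chr19:6046527-6046555, plus strand: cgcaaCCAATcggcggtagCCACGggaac
Herpud1, chr8:94386372-94386392, plus strand: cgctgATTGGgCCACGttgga
In Calr and in the second Hsp90b1 stretch the element reads in reverse, so that the ends appear as CGTGG and ATTGG. The first base of the ERSE lay between 44 bases (Syvn1) and 212 bases (Hsp90b1) upstream of the start. Of the other elements searched on both strands, the C/EBP-ATF response element bound by ATF4 (TGATG, any base, AA) was in 3.97% of all windows and in those of Asns, Chac1, Herpud1 and Trib3. The heat shock element bound by HSF1 (GAA, TTC and GAA with 2 bases between each) was in 0.603% of all windows and, of the 33 genes, in Hsph1. The unfolded protein response element (TGACG followed directly by TGG) was in 0.676% of all windows and in none of the 33 genes. Such matches describe the letters of these windows, not binding.

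Levels are given as CPM, the count of a gene divided by its TMM-adjusted library total and scaled to the same total in every library. The deletion libraries (51536311 to 70247098 counts) were all deeper than the control libraries (47059264 to 50213377). Bcl11b itself was at 281 to 477 CPM in the control group, as against 141 to 151 CPM in the deletion group (log2 fold change -1.43, SE 0.13, edgeR adjusted p = 7.06e-05). Projection neuron markers were high in every library. Of 13 such markers 7 were lower in deletion mice (53.8%, against 3.91% of all genes tested) and 0 higher (edgeR). Of the 13, 2 had a positive log2 difference, at most 0.47, and 1 of these had an unadjusted p under 0.05. The 13 summed to 8224 to 9068 CPM in control and 6551 to 7225 in deletion mice, with none at 0. In bulk tissue, fewer cells of a type and less RNA per cell cannot be told apart. The choroid plexus gene Ttr differed between mice within both groups, from 17.4 to 1598 CPM among controls and from 38.3 to 9409 CPM among deletion mice, with the highest level in deletion 2.

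Of the 39 genes, 9 differed between deletion and control mice at an adjusted p under 0.01 (edgeR quasi-likelihood test, Benjamini-Hochberg adjustment over 22173 genes). This is 23.1% of them, against 8.78% of all genes tested. The 39 genes were chosen with earlier results of these data known, so the difference in share is not a test of the set. Ern1, Eif2ak4, Atf4, Canx and Hspa1a were the 5 that rose, where 4.87% of all genes rose. Atf6, Atf6b, Hsph1 and Dnajb1 were the 4 that fell, where 3.91% of all genes fell. With the filter set to 1 CPM in 4 mice, 1992 of 16345 genes were called, and of the 39 genes 6 rose and 4 fell. The median log2 fold change over the 39 was -0.04, beside -0.00 over all genes. The levels of the groups did not overlap for 15 of the 39 (38.5%), against 22.0% of all genes tested. Called genes in both directions were found within the same role: among the ER stress sensors Ern1 rose while Atf6 and Atf6b fell, and among the cytosolic chaperones Hspa1a rose while Hsph1 and Dnajb1 fell.

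**Figure D1:**
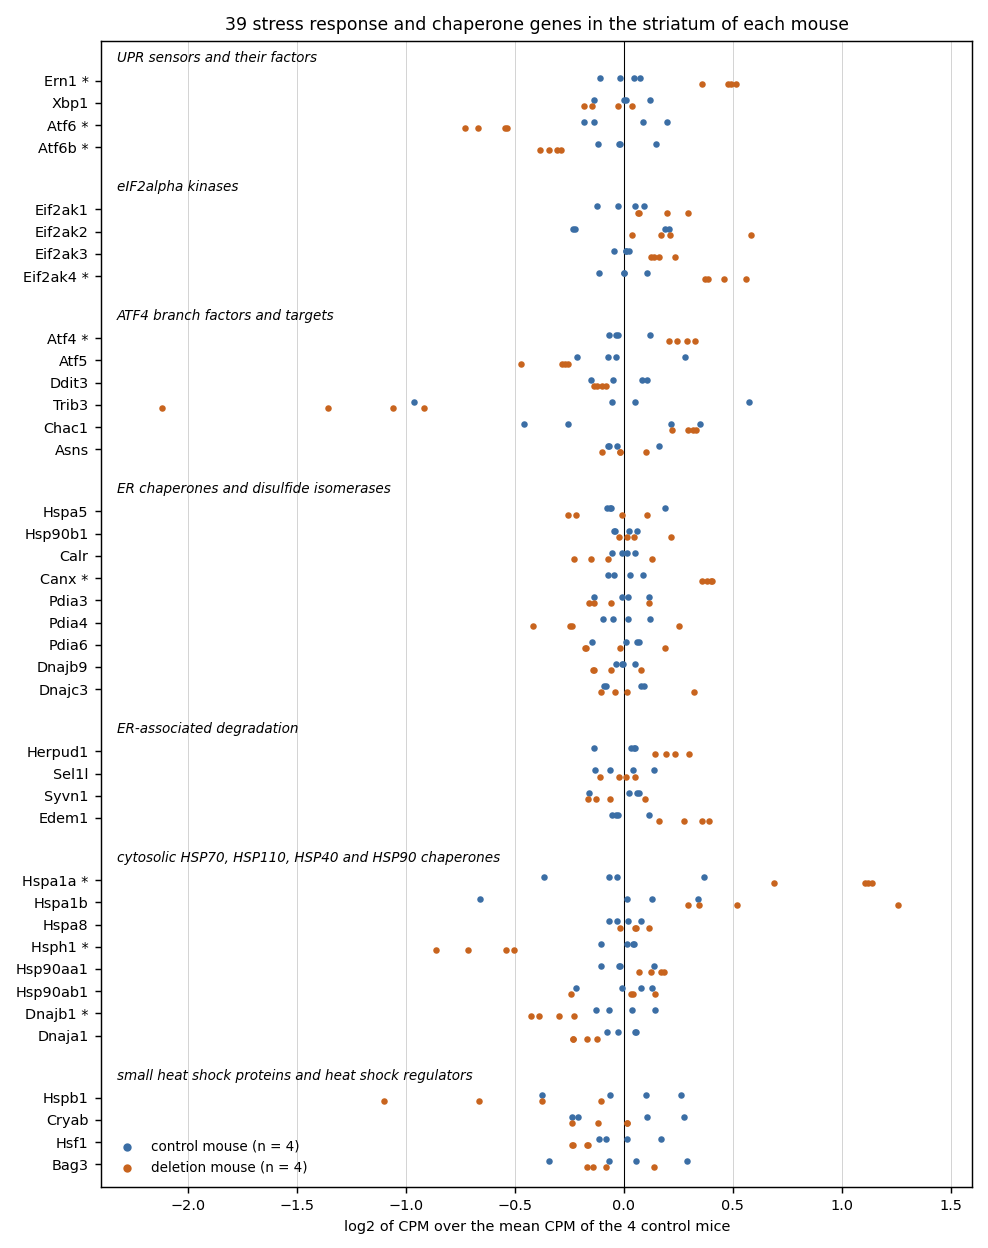
Level of each of the 39 genes in each mouse, as log2 of CPM over the mean of the 4 control mice (x axis), ordered by role, with 1 point per mouse (blue, control; orange, deletion) and an asterisk for an edgeR adjusted p under 0.01. The orange points lie clear of the blue ones to the right for genes such as Canx and Eif2ak4 and to the left for Atf6 and Hsph1, and they overlap for Hspa5, Xbp1 and most of the other ER chaperones.

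The 3 sensor genes of the IRE1 and ATF6 branches moved in opposite directions. Ern1, on chromosome 11 (106394650 to 106487852, minus strand, GRCm38), encodes the kinase and RNase IRE1alpha. It was at 7.76, 7.28, 8.26 and 8.11 CPM in controls 1 to 4 and at 11.2, 10.1, 11.0 and 10.9 in deletions 1 to 4. The lowest deletion mouse exceeded the highest control, a rise of 37.7% (log2 fold change 0.46, SE 0.09, edgeR adjusted p = 0.00559). Atf6, on chromosome 1 (170704674 to 170867771, minus strand), was at 161, 123, 149 and 127 CPM in control mice and at 88.0, 84.6, 96.7 and 96.0 in deletion mice. It was the lower in every deletion mouse, with a fold of 0.651 (log2 fold change -0.62, SE 0.09, edgeR adjusted p = 8.1e-04). Its paralogue Atf6b, on chromosome 17 (34647146 to 34655074, plus strand), was at 38.2, 34.0, 33.9 and 31.7 CPM in control mice and at 26.4, 27.8, 28.2 and 27.2 in deletion mice. These groups were also apart, with control 4 the nearest to the deletion mice (log2 fold change -0.33, SE 0.07, edgeR adjusted p = 0.00571). Xbp1, the target of IRE1, was at 81.1 to 97.1 CPM in control and 78.8 to 91.7 in deletion mice, which overlapped (log2 fold change -0.08, adjusted p = 0.5). Atf6 passed the threshold whichever mouse was left out, with an adjusted p of at most 0.00434. Ern1 passed only without control 4 or deletion 2 (highest 0.0228, without deletion 3) and Atf6b only without control 4 (highest 0.0218, without deletion 1).

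The 4 eIF2alpha kinases each answer to a different stress, and 1 of them passed the threshold. Eif2ak4, on chromosome 2 (118388618 to 118475234, plus strand), encodes GCN2, which senses uncharged tRNA when amino acids run short. It was at 21.7, 23.5, 23.5 and 25.3 CPM in control mice and at 34.7, 30.4, 32.3 and 30.7 in deletion mice, with no overlap and a rise of 36.2% (log2 fold change 0.45, SE 0.07, edgeR adjusted p = 0.00134). It passed in all 8 fits that left out a mouse (highest adjusted p 0.00624, without deletion 3). Eif2ak3, the ER stress kinase PERK, was at 26.0, 25.1, 26.3 and 26.0 CPM in control and 28.9, 28.1, 30.4 and 28.4 in deletion mice. Its groups were apart as well, but its log2 difference of 0.16 (SE 0.05) did not pass (edgeR adjusted p = 0.0602). Eif2ak1, the kinase HRI that responds to heme deficiency, had a log2 difference of 0.16 (adjusted p = 0.167). Eif2ak2, the double-stranded RNA sensor PKR, had a log2 difference of 0.26 (adjusted p = 0.285) and was highest in deletion 2, at 12.4 CPM against 7.05 to 9.6 in the other mice. All 4 kinases had a positive difference, of which only that of Eif2ak4 passed.

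Downstream of these kinases, Atf4 rose, and none of the other 5 genes of its branch passed the threshold. Atf4, on chromosome 15 (80255184 to 80257541, plus strand), was at 78.5, 79.0, 76.8 and 87.4 CPM in control mice and at 95.3, 98.2, 92.7 and 101 in deletion mice. The highest control mouse stayed below the lowest deletion mouse, and the rise was 20.3% (log2 fold change 0.27, SE 0.05, edgeR adjusted p = 0.00586). It passed only without control 4 among the fits that left out a mouse (highest adjusted p 0.0219, without control 3). Trib3, a pseudokinase induced by ATF4 and CHOP, was at 4.50, 2.91, 3.13 and 1.55 CPM in control mice and at 1.18, 0.694, 1.6 and 1.45 in deletion mice. Control 4 lay among the deletion mice and the other controls above them, and the log2 difference of -1.30 (SE 0.33) missed the threshold (edgeR adjusted p = 0.0205). It passed without control 4 (0.00526), with no filter on low counts (0.00466) and with DESeq2 (7.68e-04). It rests on 39 to 224 counts per library. Ddit3, which encodes the apoptosis-linked factor CHOP, was at 24.3 to 29.1 CPM in control and 24.6 to 25.5 in deletion mice (log2 difference -0.11, adjusted p = 0.32). Asns, the asparagine synthetase gene, was at 99.5 to 117 CPM in control and 97.8 to 112 in deletion mice (log2 difference -0.01, adjusted p = 0.956). Chac1, which encodes an enzyme that degrades glutathione, had a log2 difference of 0.29 (adjusted p = 0.332), with controls 1 and 2 at 2.49 and 2.87 CPM and the other 6 mice at 3.98 to 4.36. The ATF4-related factor Atf5 was at 6.28 to 8.85 CPM in control and 5.26 to 6.10 in deletion mice, apart but short of the threshold (log2 difference -0.32, adjusted p = 0.123). Of the 4 genes with the C/EBP-ATF response element in their window, Asns, Chac1 and Trib3 are among these. None of the 4 passed with edgeR, where 8.78% of all genes tested did, and 4 genes are too few to differ from that share. DESeq2 called Trib3 lower and the fourth, Herpud1, higher (adjusted p = 0.00713).

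**Figure D2:**
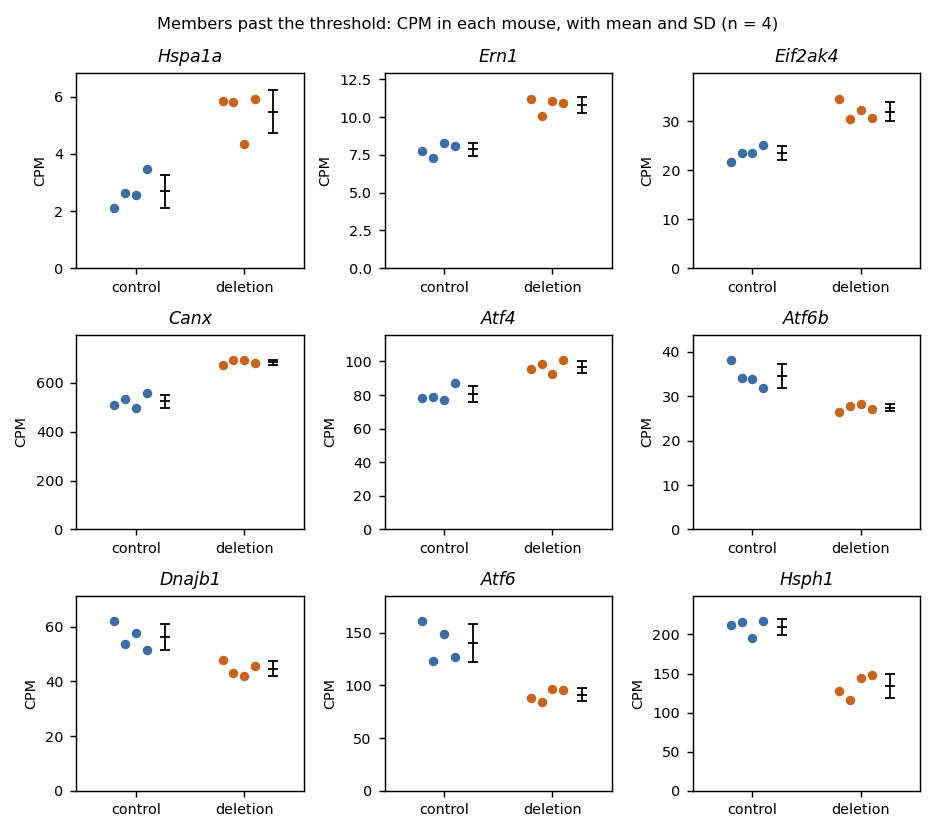
CPM (y axis, from 0) of the 9 genes past the threshold in each control and deletion mouse, with the mean and SD of the 4 mice beside the points. In every panel the points of the 2 groups do not overlap, and the largest fold is that of Hspa1a, at 2.09 to 3.48 CPM against 4.34 to 5.93.

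Among the 9 ER chaperones and disulfide isomerases, Canx rose and the other 8 did not pass. Canx, on chromosome 11 (50293961 to 50325673, minus strand), encodes calnexin, the membrane-bound lectin that holds glycoproteins while they fold. It was at 509, 534, 497 and 557 CPM in control mice and at 672, 692, 694 and 682 in deletion mice. The 4 deletion mice were closer to each other (SD 10.3) than to any control, and the rise was 30.7% (log2 fold change 0.39, SE 0.05, edgeR adjusted p = 7.49e-04). It passed whichever mouse was left out, with an adjusted p of at most 0.00417. Calr, the gene of calreticulin, its soluble counterpart in the lumen, was at 311, 289, 298 and 303 CPM in control and 285, 329, 271 and 256 in deletion mice. These overlapped, with a log2 difference of -0.08 (SE 0.07, adjusted p = 0.545). Hspa5, which encodes BiP, the central ER chaperone and usual readout of ER stress, was at 355, 358, 359 and 426 CPM in control and 372, 403, 322 and 313 in deletion mice. The deletion mice lay on both sides of controls 1 to 3, and the log2 difference was -0.09 (SE 0.09, adjusted p = 0.581).

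The remaining ER chaperone and disulfide isomerase genes overlapped between the groups. Hsp90b1, which encodes the ER member of the HSP90 family, GRP94, had a log2 difference of 0.07 (adjusted p = 0.51). The disulfide isomerase genes Pdia3, Pdia4 and Pdia6 had log2 differences of -0.06, -0.14 and -0.04, and the J-domain co-chaperone genes of BiP, Dnajb9 and Dnajc3, of -0.06 and 0.06. Of the 7 genes that carry the ERSE, Canx was the only one called, where 8.78% of all genes tested were. The log2 differences of the other 6 lay between -0.09 (Hspa5) and 0.07 (Hsp90b1).

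Within the deletion group these ER genes moved together by mouse. Deletion 2 was the highest of the 4 deletion mice for 8 of the 9 genes and the highest of all 8 mice for 6 of them. Pdia4 shows this most, at 104 CPM in deletion 2 against 73.9, 73.6 and 65.3 in deletions 1, 3 and 4 and 81.7 to 94.7 in control mice. Deletion 2 was also the mouse with the most choroid plexus RNA: Ttr was at 9409 CPM, Folr1 at 82.9 and Kl at 171, where the next highest levels were 1791 and 1598 for Ttr. The 8 markers of choroid plexus and blood summed to 185 to 1851 CPM in control and 326 to 9889 in deletion mice. None was at 0 in any mouse and 0 of 8 passed between groups (edgeR), with 1 at an unadjusted p under 0.05, and their part in the ER chaperone levels was not tested. Without deletion 2, the median log2 difference of the 9 genes was -0.12 instead of -0.06, and 7 rather than 6 were negative. Pdia4 then had a log2 difference of -0.30 (SE 0.07, edgeR adjusted p = 0.0151), and Canx one of 0.38 (SE 0.06, adjusted p = 0.00154).

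**Figure D3:**
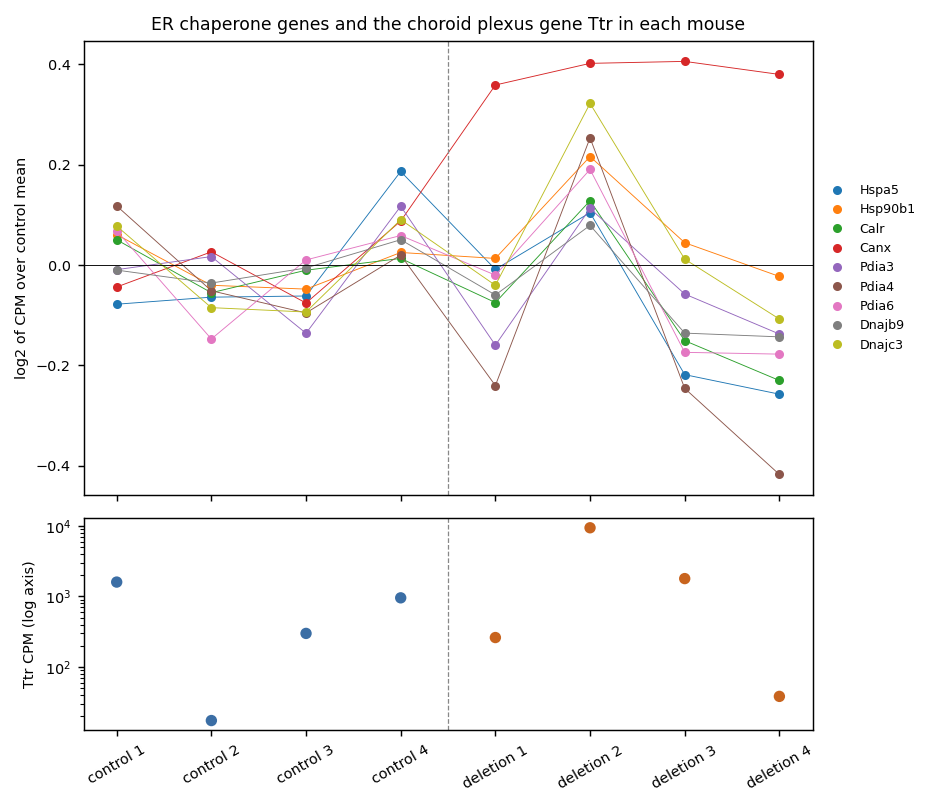
Upper panel, log2 of CPM over the control mean (y axis) of the 9 ER chaperone and disulfide isomerase genes in each of the 8 mice (x axis), with a line per gene. Lower panel, CPM of the choroid plexus gene Ttr in the same mice on a log axis: Canx is high in all 4 deletion mice, while the other 8 genes peak within that group in deletion 2 (Hspa5 at 403 CPM), the mouse with Ttr at 9409 CPM.

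None of the 4 ERAD genes passed the threshold with edgeR, while 2 did with DESeq2 and had an unadjusted p under 0.05, Edem1 and Herpud1. Edem1, which encodes a lectin that directs misfolded glycoproteins to degradation, was at 30.5, 27.6, 27.2 and 27.7 CPM in control and 37.0, 34.2, 36.2 and 31.6 in deletion mice. Every deletion mouse was above every control, with a log2 difference of 0.30 (SE 0.07, edgeR adjusted p = 0.0113). It was past the threshold with the 1 CPM filter (0.00808), with robust dispersion (0.00886), and without control 1 (0.00894) or deletion 4 (0.00961). Herpud1, an ER membrane protein gene induced by ER stress, was at 67.2, 59.6, 67.9 and 67.8 CPM in control and 77.3, 80.7, 75.0 and 72.5 in deletion mice. These were apart too, with a log2 difference of 0.22 (SE 0.06, edgeR adjusted p = 0.0233). Sel1l and Syvn1, which encode the adaptor and the ubiquitin ligase HRD1 of one complex, had log2 differences of -0.02 (adjusted p = 0.889) and -0.06 (adjusted p = 0.695), and their groups overlapped.

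Of the 8 cytosolic chaperones of the HSP70, HSP110, HSP40 and HSP90 families, 1 rose and 2 fell. Hsph1, on chromosome 5 (149614287 to 149636376, minus strand), encodes an HSP110, the nucleotide exchange factor that resets HSP70. It was at 212, 216, 195 and 217 CPM in control mice and at 128, 116, 144 and 148 in deletion mice. The highest deletion mouse was well under the lowest control, with a fold of 0.638 (log2 fold change -0.65, SE 0.08, edgeR adjusted p = 2.9e-04), the smallest adjusted p of the 39 genes. It passed without any one mouse (adjusted p at most 0.00186). Dnajb1, on chromosome 8 (83608193 to 83612653, plus strand), encodes an HSP40 that delivers substrates to HSP70. It was at 62.0, 53.7, 57.8 and 51.6 CPM in control and at 47.9, 43.0, 41.8 and 45.8 in deletion mice, with no overlap (log2 fold change -0.33, SE 0.07, edgeR adjusted p = 0.00765). It passed only without control 4 when a mouse was left out (highest adjusted p 0.0307, without deletion 3). Dnaja1, another HSP40 gene, was at 199 to 218 CPM in control and 178 to 192 in deletion mice, apart but short of the threshold (log2 difference -0.19, adjusted p = 0.0203).

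Of the stress-inducible HSP70 genes, both present at low levels, Hspa1a rose and Hspa1b did not pass. Hspa1a, on chromosome 17 (34969190 to 34972156, minus strand), was at 2.09, 2.64, 2.57 and 3.48 CPM in control and 5.86, 5.80, 4.34 and 5.93 in deletion mice. The groups were apart, and the level was 2.04 times as high in deletion mice (log2 fold change 1.03, SE 0.18, edgeR adjusted p = 0.00298), from 104 to 408 counts per library. Its call was lost without control 3, deletion 1 or deletion 4 (highest adjusted p 0.0123). Hspa1b, next to it on the same strand (34956436 to 34959238), was at 4.93, 6.17, 3.09 and 5.34 CPM in control and 11.7, 6.99, 6.19 and 5.99 in deletion mice. Deletion 1 stood above the rest and deletion 4 below control 2, and the log2 difference of 0.66 (SE 0.25) did not pass (edgeR adjusted p = 0.105). The genes share sequence: 56.5% of the 100-base windows of Hspa1a transcripts also occur in transcripts of other genes, and 49.9% of those of Hspa1b. Those other genes include the other copy, Hspa1l, Gm10501 and Gm20481, on either strand. The shares thus do not measure the identity of Hspa1a and Hspa1b alone. How the counting split reads between them is not given in the sources used here, so the counts were also added. Their sum was 7.02, 8.81, 5.66 and 8.82 CPM in control and 17.5, 12.8, 10.5 and 11.9 in deletion mice, 7.58 ± 1.54 against 13.2 ± 3.04 (SD, n = 4 each). The sums did not overlap (log2 difference 0.80, SE 0.22, two-sided exact permutation test p = 0.0286, the smallest that 4 against 4 allow). Without control 3 the exact permutation p was 0.0571. A further limit applies to Hspa1a alone, since 19.0% of its exon bases overlap Gm20481 on the other strand.

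The abundant cytosolic chaperones did not pass in either direction. Hspa8, which encodes the constitutive HSP70 of all cells, was at 1511 to 1670.2 CPM in control and 1563 to 1715 in deletion mice (log2 difference 0.05, adjusted p = 0.652). Hsp90aa1, the inducible cytosolic HSP90 gene, was at 659 to 779 CPM in control and 744 to 805 in deletion mice (log2 difference 0.14, adjusted p = 0.174), and Hsp90ab1, the constitutive one, had a log2 difference of 0.00 (SE 0.09, adjusted p = 0.999). Transcripts of Hspa8, Hsp90aa1 and Dnaja1 share 28.5%, 38.0% and 16.6% of their 100-base windows with other genes, so these levels are less certain than those of the 8 called genes other than Hspa1a, none of which shares any.

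The small heat shock proteins and heat shock regulators gave 4 negative differences and no call by edgeR or DESeq2, with 2 of the 4 at an unadjusted p under 0.05. Hsf1, the gene of the heat shock transcription factor, was at 19.4, 19.8, 21.2 and 23.6 CPM in control and 18.7, 17.8, 18.6 and 17.8 in deletion mice. The groups did not overlap, and the log2 difference was -0.20 (SE 0.07, edgeR adjusted p = 0.0933). Hspb1, the gene of HSP25, was at 2.01 to 3.13 CPM in control and 1.21 to 2.42 in deletion mice (log2 difference -0.51, adjusted p = 0.159), and 44.0% of its 100-base windows occur in transcripts of other genes. Cryab, which encodes alpha B-crystallin and is strong in oligodendrocytes, was at 24.2 to 34.6 CPM in control and 24.2 to 28.8 in deletion mice (log2 difference -0.08, adjusted p = 0.71). It was highest in control 1, which also had the highest sum of 10 oligodendrocyte markers, 8638 CPM against 5501 to 6806 in the other 7 mice. Bag3, an HSP70 co-chaperone gene of selective autophagy, had a log2 difference of -0.06 (adjusted p = 0.861).

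Among the marker lists, 3 of 11 immediate early genes, which respond within minutes to activity and stress, fell (Dusp1, Egr1 and Fosb). This is 27.3%, against 3.91% of all genes tested, and DESeq2 called 4. The other 8 did not pass with edgeR, among them Ier2 with the highest log2 difference of the list, 0.49. Of the 11, 9 had a negative log2 difference (median -0.53), and 6 of these had an unadjusted p under 0.05 (54.5%, against 14.5% of all genes). The list summed to 295 to 569 CPM in control and 275 to 345 in deletion mice, which overlapped, with none at 0. Their part in the levels of Hsph1 and Dnajb1, and that of the lower projection neuron markers, was not tested. None of the 10 astrocyte, 10 oligodendrocyte, 10 microglia or 10 vascular markers passed between groups with edgeR. Of these 40, 2 astrocyte markers had an unadjusted p under 0.05, and DESeq2 called 1. Of 8 markers of cortical excitatory neurons, Cux2 rose (13.1 ± 1.41 against 25.2 ± 2.06 CPM, log2 fold change 0.95, edgeR adjusted p = 8.67e-05). This is 12.5% of the list, against 4.87% of all genes tested. Of the 8, 5 had a negative log2 difference, 1 of them at an unadjusted p under 0.05, and the median was -0.08. The 8 summed to 74.5, 70.9, 79.8 and 179 CPM in controls 1 to 4, with none at 0. In deletions 1 to 4 they summed to 72.9, 67.4, 105 and 188 CPM, again with none at 0. Control 4 and deletion 4 thus had the highest sums of their groups. The part of this cortical RNA in the levels of the other genes in these mice was not tested.

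Levels can be compared between the 39 genes only per length of transcript. In CPM per kilobase of exon length, Hspa8 was the highest, at 368 ± 16.3 in control and 381 ± 14.4 in deletion mice (mean and SD, n = 4). Hsp90aa1 (180.3 ± 12.8) and Hsp90ab1 (169.7 ± 17.5) followed in control mice and did not differ beyond their spread. Canx (112 ± 5.68) was next to Calr (104 ± 3.19) in control mice, and in deletion mice their levels were 146 ± 2.20 and 99.1 ± 10.8. Hspa5 was at 88.6 ± 8.15. At the low end stood Trib3 (1.42 ± 0.569), Ern1 (0.961 ± 0.0531), Hspa1a (0.908 ± 0.194) and Bag3 (0.892 ± 0.160) in control mice, and the last 3 of these are within their spread of each other. In deletion mice Hspa1a was at 1.85 ± 0.257 and Trib3 at 0.579 ± 0.187, the lowest of the 39. Atf6 and Atf6b were next to each other in control mice (15.2 ± 1.94 and 12.5 ± 0.973) and in deletion mice (9.89 ± 0.651 and 9.93 ± 0.286). Their SDs overlapped in both groups, but both genes come from the same mice and were not compared mouse by mouse.

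**Figure D4:**
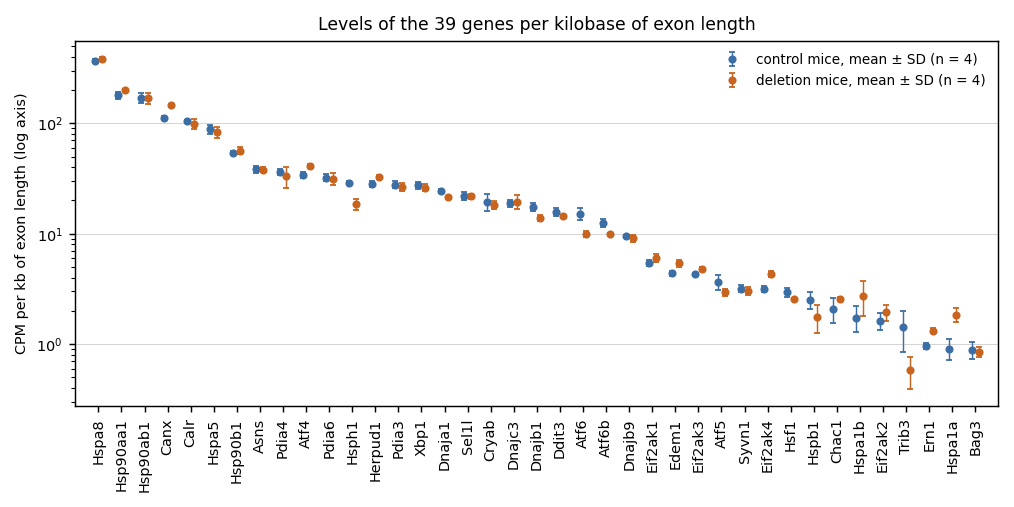
Mean level of each of the 39 genes in CPM per kilobase of exon length (y axis, log scale) in control (blue) and deletion mice (orange), with bars for the SD of 4 mice, ordered by the control level. The genes span from Hspa8 at 368 to Bag3 at 0.892 in control mice, and the separations of Canx, Hsph1, Atf6, Eif2ak4 and Hspa1a exceed their bars.

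Of the wider pathway, about as many genes passed as among all genes. Of 141 tested genes of the same processes outside the 39, listed by function, 12 rose and 0 fell with edgeR. This is 8.51% called, near the 8.78% of all genes, of which 4.87% rose and 3.91% fell. The groups did not overlap for 42 (29.8%, against 22.0% of all genes). At an unadjusted p under 0.05, 48 were higher (34% against 15.1% of all genes) and 16 lower (11.3% against 14.5%). DESeq2 called 22 higher and 4 lower (18.4% called, against 14.9% of all genes). Their median log2 difference was 0.08, beside -0.00 over all genes. Among 45 other cytosolic chaperones and co-chaperones, 7 rose (15.6%, against the 4.87% of all genes). These include Stip1, the adaptor that passes clients from HSP70 to HSP90 (130 ± 8.92 against 175 ± 2.32 CPM, log2 fold change 0.43, edgeR adjusted p = 3.79e-04), Bag2, an HSP70 co-chaperone (4.00 ± 0.674 against 8.40 ± 0.736 CPM, 1.07, 5.34e-04), and Fkbp4, an HSP90 co-chaperone (103 ± 5.86 against 131 ± 2.25 CPM, 0.35, 8.79e-04). Among 36 ATF4 target genes 4 rose (11.1%), with Jdp2, a bZIP repressor, at 15.2 ± 1.31 against 27.0 ± 1.4 CPM (log2 fold change 0.83, edgeR adjusted p = 5.8e-05). Pck2, the mitochondrial phosphoenolpyruvate carboxykinase gene, was at 16.7 ± 1.66 against 24.6 ± 1.24 CPM (0.56, 0.001), and Wars, the tryptophanyl-tRNA synthetase gene, at 80.8 ± 2.55 against 95.1 ± 2.94 CPM (0.24, 0.00462). Of 17 other ERAD genes Derl1, a component of the ER membrane channel, rose (95.1 ± 5.25 against 115 ± 3.83 CPM, log2 fold change 0.28, edgeR adjusted p = 0.00405). None of 20 other ER folding genes, 11 other transducers and eIF2alpha phosphatase subunits, or 12 mitochondrial chaperones and proteases passed with edgeR, with 7, 3 and 5 at an unadjusted p under 0.05 and 1, 2 and 1 called by DESeq2.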

How the data were processed

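The authors trimmed reads with Trim Galore 0.6.4, aligned them with STAR 2.7.2b to GRCm38 and deposited raw counts per gene from featureCounts. How featureCounts treated strand and multimapping reads is not given in the sources used, so antisense and shared reads cannot be told apart. A deposited table of rlog values was not used.

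Counts were tested with edgeR 4.0.16 (R 4.3.3, limma 3.58.1): filterByExpr (minimum count 10, minimum total 15), TMM and the quasi-likelihood F-test, with group as the single term. P-values were adjusted by Benjamini-Hochberg over all genes tested (threshold 0.01), and SEs came from the F statistic. The code was checked on simulated counts. Exon lengths and overlaps are from GENCODE M21, promoters from RefSeq. The summed Hspa1a and Hspa1b counts used log2 CPM with a prior count of 2. Pairs of libraries of a group differed by 13.2 to 66.4 times the variance of counting alone, so none was a duplicate.

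As alternatives, each mouse was left out in turn, the replicate number was added as a block, the dispersion was estimated robustly, the filter was dropped or set to 1 CPM in 4 mice, TMM was replaced by RLE size factors or by library sizes, and edgeR by limma-voom or DESeq2 1.42.0. The genes and lists were chosen with earlier results of these data known. Named were all 39 genes and, of each other list, up to 3 genes past the threshold with the smallest p. March6 was not matched, since a spreadsheet had turned such names into dates.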

Additional observations from a re-analysis of the deposited data

Results flagged for a closer look

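In 6 of the 78 groups of 4 mice, 1 mouse lay apart from the other 3 of its group (Dixon's test, which flags about 1 group in 20 by chance). In control mice these were Hspa5 in control 4, at 426 CPM with the others at 355 to 359, and Asns in control 4, at 117 CPM with the others at 99.5 to 102. Herpud1 was low in control 2, at 59.6 CPM, and Edem1 high in control 1, at 30.5 CPM. In deletion mice, Hspa1a was low in deletion 3, at 4.34 CPM, and Atf5 low in deletion 3, at 5.26 CPM.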

How the results depend on the processing

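Of the 9 called genes, Atf6, Atf4, Canx, Hspa1a and Hsph1 passed in all 8 other fits to all mice, and Ern1, Atf6b, Eif2ak4 and Dnajb1 in 7 of 8. The calls of these 4 were lost with the replicate number as a block (edgeR adjusted p 0.0102 to 0.0217). In the 8 fits without 1 mouse, Atf6, Eif2ak4, Canx and Hsph1 kept their call in all 8. Hspa1a kept it in 5, Ern1 in 2, and Atf4, Atf6b and Dnajb1 in 1. DESeq2 called 3313 genes instead of 1947, 22 wider pathway genes higher and 4 lower, and of the 39 also Edem1, Herpud1, Trib3 and Dnaja1. Over all genes, deviations from the group means were little correlated between same-numbered mice (0.03, -0.23, 0.03 and 0.06). Only number 4 correlated best with its own number. These correlations cannot exclude a batch shared by some of the numbers. With the number as a block, 1165 genes were called, 3 of the 39 higher and 2 lower, and 1 wider pathway gene lower. Leaving out a mouse gave 2 to 5 of the 39 higher and 2 to 5 lower, 7 to 16 wider pathway genes higher and 0 to 1 lower, and 1102 to 2066 genes in all. The summed Hspa1a and Hspa1b difference was 0.65 to 0.90. The sign turned only for uncalled genes near 0. Hsp90ab1 was at -5.76e-05 with DESeq2, -5.01e-05 with RLE size factors, -0.0116 with library sizes alone, -0.000428 with the 1 CPM filter and -0.000283 with the block, and Asns at 0.000756 with no filter. Without 1 mouse, Hsp90ab1 ranged from -0.0638 to 0.0748, Asns from -0.0440 to 0.0581, Sel1l from -0.0570 to 0.0316, Cryab from -0.151 to 0.0269, Bag3 from -0.151 to 0.0527, Dnajc3 from -0.0435 to 0.107 and Pdia6 from -0.121 to 0.0073. The cause of these changes was not tested, except that fewer mice enter each such fit. Low counts limit Trib3, Hspa1a, Hspb1 and Bag3 the most.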
